A study of Mus musculus with 5 samples.

Results

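The enzymes of heme synthesis and the transferrin receptor were followed over 5 arrays of 32D cells, each carrying a different FLT3-ITD construct. The set was fixed by gene name and holds 9 of the 18193 genes that had a probe set on the array: the 8 enzyme genes Alas1, Alas2, Alad, Uros, Urod, Cpox, Ppox and Fech, taken in pathway order, and Tfrc. Every probe set that the platform annotation assigns to these genes was read, 25 in all, of which 3 are the manufacturer's control probe sets for Tfrc. On the ITD613 array the middle and late enzymes Alad, Uros, Urod, Cpox and Fech read 2.08-fold to 4.09-fold above the mean of ITD598, ITD602 and ITD611, and on the ITD78 array 1.34-fold to 2.37-fold above it. The entry enzyme Alas1 and Tfrc ranged over less than 2-fold, and the probe set for the erythroid entry enzyme Alas2 lay in the lowest range of the arrays throughout.

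32D is a mouse myeloid progenitor line, and FLT3 is a growth factor receptor of early blood cells whose tyrosine kinase becomes active without ligand when it carries an internal tandem duplication (ITD). The cells had been stably transduced by retrovirus with FLT3 ITD78, FLT3 ITD598, FLT3 ITD602, FLT3 ITD611 or FLT3 ITD613, starved for 3 h and then given a tyrosine kinase inhibitor (TKI), which the labels do not name, for 1 h. All 5 groups share the starvation and the inhibitor, and no array without a construct or without inhibitor was analysed here. The labels do not say what the construct numbers mean, or whether a transduced line is a pool or a clone. Each group is 1 array, so there is no replicate, no test and no p-value, and differences are described by their size.

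Heme is built from glycine and succinyl-CoA. ALA synthase makes the precursor in mitochondria, the following enzymes assemble the ring in the cytosol, and the last steps, which end with the insertion of iron, return to mitochondria. Most tissues use the ALA synthase encoded by Alas1, and red cell precursors add the one encoded by Alas2. Transferrin receptor 1, the product of Tfrc, brings in iron bound to transferrin. Red cell precursors need large amounts of both for hemoglobin, and every cell needs some heme for respiration.

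Values are log2 RMA values. Many low probe sets of an array share identical values. The highest value shared by at least 100 probe sets of an array was 3.74, and differences below that level were not sized. Equal values also occur above it, as for Uros on ITD598 and ITD602 and for Fech (1418699_s_at) on ITD602 and ITD611. Of the 25 probe sets, 13 lay above 3.74 on all 5 arrays, 11 lay at or below it on all 5, and 1 crossed it. The probe set with the highest mean stood for its gene. As a yardstick, the log2 differences between the closest pair of arrays had an SD of 0.18 over the 9621 genes that passed an expression filter. Of the 9 genes, 8 passed it; Alas2 did not, and Ppox did so only through its value on ITD613. The array medians lay between 1.99 and 2.06. In the labels only the ITD602 array has a date-like string unlike the rest. The labels do not say what the string marks, and whatever it marks cannot be told apart from the construct.

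Stretches before the transcription start are shown for Alad, Uros, Urod and Cpox, members whose levels moved together. Alas2 is shown too, although its values all lay below 3.74 and its differences were not sized. They were taken from RefSeq (GRCm38.p6), in which 8 of the 9 genes, all but Fech, had at least 1 window, and run 5′ to 3′ on the strand of the gene. Capitals mark the letters CACGTG, an E-box that MYC and USF proteins can bind, and GATA letters, the kind bound by GATA1 and GATA2. Alad (chr4:62520064-62520313, minus strand) and Urod (chr4:116994414-116994663, minus strand) each hold CACGTG, and Cpox (chr16:58669958-58670207, plus strand) holds a pair of GATA letterings that overlap by their ends.
Alad: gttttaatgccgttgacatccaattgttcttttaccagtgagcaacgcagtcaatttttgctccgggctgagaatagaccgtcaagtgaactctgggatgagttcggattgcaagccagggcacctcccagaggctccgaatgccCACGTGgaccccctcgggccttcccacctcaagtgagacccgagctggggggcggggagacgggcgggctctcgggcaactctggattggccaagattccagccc
Urod: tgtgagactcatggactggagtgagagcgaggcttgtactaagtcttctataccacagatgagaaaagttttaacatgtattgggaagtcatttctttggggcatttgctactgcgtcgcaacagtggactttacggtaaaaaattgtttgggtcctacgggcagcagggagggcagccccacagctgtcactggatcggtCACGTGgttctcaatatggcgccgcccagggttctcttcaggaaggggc
Cpox: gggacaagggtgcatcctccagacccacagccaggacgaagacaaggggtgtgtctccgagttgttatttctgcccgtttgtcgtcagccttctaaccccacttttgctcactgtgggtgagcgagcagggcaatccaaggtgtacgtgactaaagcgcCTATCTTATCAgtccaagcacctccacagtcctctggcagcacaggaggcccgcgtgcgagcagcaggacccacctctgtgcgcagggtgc

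Uros has a pair of windows, and the one at its start inside the gene holds GATA letters, shown here at chr7:133702551-133702580 (minus strand) and beginning 68 bases before that start. A further GATA match in that window begins 205 bases before the start and is not shown. Alas2 holds GATA letters that begin 86 bases before its start, shown at chrX:150547319-150547348 (plus strand). The Alas2 window overlaps the genes Apex2 and Mir3620, and the outer Uros window overlaps Bccip.
Uros, inner start: tctccctcagccTTATCAgtgacagagggc
Alas2: ctactttgctttTTATCTttagcagaggcc

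Over the 250 bases before the start, on both strands, 3 of the 12 windows of these 8 genes (Uros inner start, Cpox and Alas2) held AGATAA, or a variant of it with G as the last letter, with T as the first letter, or with both changes (4 GATA letterings in all), against 26.5% of all 32851 windows. CACGTG was present in 4 of the 12 windows (both windows of Alad, that of Urod and the outer one of Uros), against 6.02% of all windows. CACCC was present in 7 of the 12 windows (52.0% of all windows) and GGGCGG also in 7 (32.7%). CCAAT was in 5 (33.8%), TATAA in 2 (22.8%) and TGCGCA in 1 (6.43%). The other letterings searched were CCACACCC (3.20% of all windows) and TGANTCA (6.75%). Windows of 1 gene can overlap, as those of Alad do. Within Alas2, 1 CACCC match overlaps GGGCGG. Among the 12 windows, CCACACCC and TGANTCA had 0 matches. A match is a run of letters, and the arrays measure no binding.

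**Figure D1:**
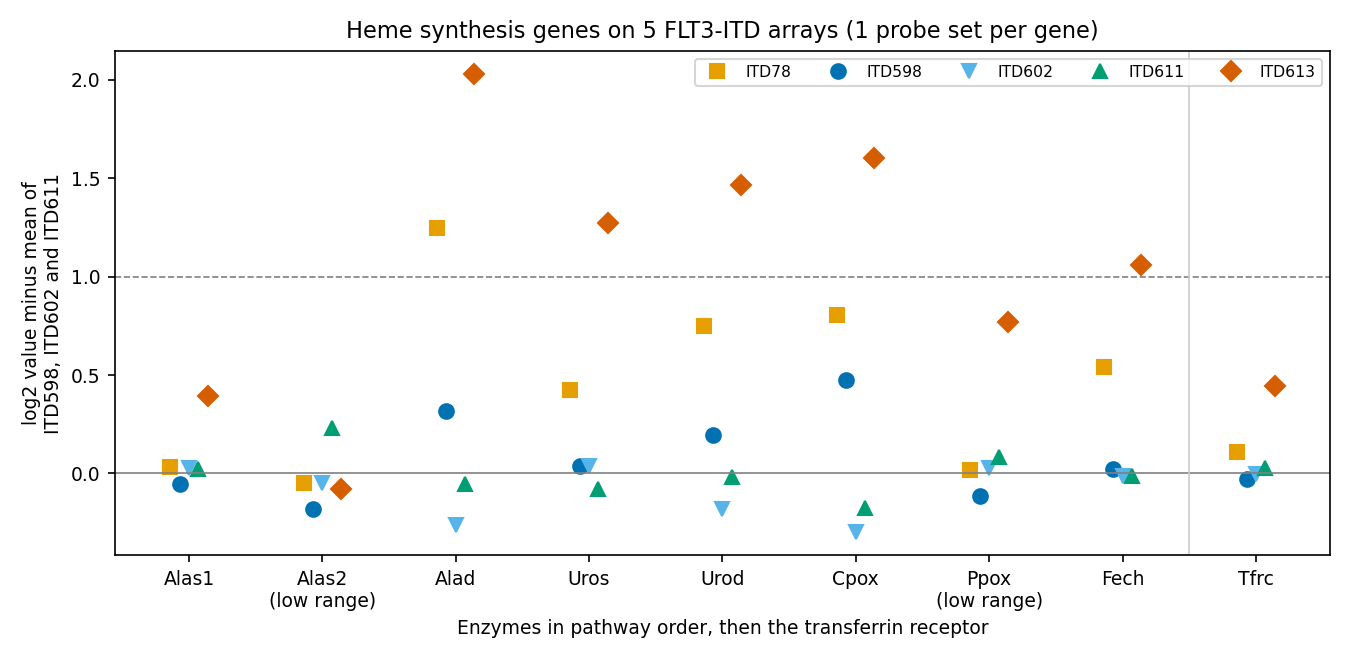
Log2 value minus the mean of ITD598, ITD602 and ITD611 (vertical axis) for the 9 genes in pathway order (horizontal axis), with 1 point per array and 1 probe set per gene; the dashed line marks 2-fold. Alad, Uros, Urod, Cpox and Fech on ITD613 lie above the dashed line, ITD78 lies between ITD613 and the other arrays for these 5 genes, and the values of Alas2 and Ppox are in the low range.

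For the step that commits a cell to heme synthesis only Alas1 could be sized, and it ranged over less than 2-fold. Alas1 read 5.07 on ITD78, 4.98 on ITD598, 5.06 on ITD602, 5.06 on ITD611 and 5.43 on ITD613 (probe set 1424126_at). ITD613 was thus highest, by 0.40 over the mean of ITD598, ITD602 and ITD611 (5.04 ± 0.04, SD, n = 3 arrays), and ITD78 lay 0.03 above that mean. A second Alas1 probe set read between 2.46 and 2.73, in the low range, with ITD598 highest. Alas2 has 1 probe set, which read 1.46, 1.33, 1.46, 1.74 and 1.43 on ITD78, ITD598, ITD602, ITD611 and ITD613. All these Alas2 values lie in the low range, and their order says nothing about size.

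Alad, which encodes ALA dehydratase, the enzyme that joins a pair of ALA molecules into a pyrrole, had the widest range among the probe sets that stand for the 9 genes. It read 9.85 on ITD78, 8.92 on ITD598, 8.34 on ITD602, 8.55 on ITD611 and 10.63 on ITD613. ITD613 lay 2.03 (4.09-fold) and ITD78 1.25 (2.37-fold) above the mean of the other constructs (8.60 ± 0.29, SD, n = 3 arrays). Among these 3, ITD598 was 0.37 above ITD611 and 0.58 above ITD602, so the Alad values of the 5 arrays formed a ladder, whose lowest rungs, ITD602 and ITD611, were 0.21 apart. A second Alad probe set gave the same order with a wider span, reading 5.14, 4.08, 3.30, 3.74 and 6.89 on ITD78, ITD598, ITD602, ITD611 and ITD613. Since its ITD602 and ITD611 values are at the top of the low range or inside it, the distances that can be sized are those among the other 3: ITD613 was 1.75 above ITD78 and 2.81 above ITD598, and ITD78 was 1.06 above ITD598.

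Uros encodes uroporphyrinogen III synthase, which closes the ring. It read 5.80 on ITD78, 5.41 on ITD598, 5.41 on ITD602, 5.30 on ITD611 and 6.65 on ITD613. ITD613 was 1.27 (2.42-fold) above the mean of ITD598, ITD602 and ITD611 (5.37 ± 0.07, SD, n = 3 arrays), and ITD78 was 0.42 (1.34-fold) above it. The other Uros probe set read 1.59 to 1.90 and lay in the low range on every array.

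Urod encodes uroporphyrinogen decarboxylase, the last cytosolic enzyme. Its stronger probe set, of a type that can bind related transcripts (suffix _x_at), read 8.81 on ITD78, 8.26 on ITD598, 7.88 on ITD602, 8.05 on ITD611 and 9.53 on ITD613. The other, 1417206_at, read 7.47, 6.94, 6.68, 6.69 and 8.0 in that order of arrays. Both placed ITD613 highest and ITD78 next, with ITD613 above the mean of ITD598, ITD602 and ITD611 by 1.47 (2.76-fold) and 1.23 (2.35-fold), and ITD78 above it by 0.75 and 0.69.

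Cpox encodes coproporphyrinogen oxidase, with which the pathway returns to the mitochondrion. Its leading probe set read 6.15 on ITD78, 5.82 on ITD598, 5.04 on ITD602, 5.16 on ITD611 and 6.95 on ITD613. ITD613 was 1.61 (3.04-fold) and ITD78 0.81 (1.75-fold) above the mean of the other constructs (5.34 ± 0.42, SD, n = 3 arrays), a mean over values that differ by up to 0.78 among themselves. A second Cpox probe set read 5.12, 4.55, 4.84, 4.17 and 5.97 on ITD78, ITD598, ITD602, ITD611 and ITD613. ITD613 and ITD78 kept the top ranks there, but ITD602 and ITD598 changed places, so the order of the lower 3 arrays for Cpox depends on the probe set. The remaining Cpox probe set read 0.75 to 1.30, in the low range.

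Ppox encodes protoporphyrinogen oxidase, the enzyme before the last. Its best probe set read 2.54 on ITD78, 2.41 on ITD598, 2.55 on ITD602, 2.61 on ITD611 and 3.29 on ITD613. ITD613 was highest, but all 3 Ppox probe sets lie in the low range on all arrays, so this distance was not sized. A further probe set had ITD613 highest (1.60) and ITD78 next (1.22), and the other had ITD613 lowest (1.28).

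Fech encodes ferrochelatase, which inserts the iron. Its probe set 1418699_s_at read 6.61 on ITD78, 6.09 on ITD598, 6.05 on ITD602, 6.05 on ITD611 and 7.12 on ITD613. ITD613 was 1.06 (2.08-fold) and ITD78 0.54 (1.45-fold) above the mean of ITD598, ITD602 and ITD611 (6.07 ± 0.02, SD, n = 3 arrays). The probe set 1418698_a_at read 5.65, 5.22, 4.82, 5.03 and 6.07 on ITD78, ITD598, ITD602, ITD611 and ITD613. Probe set 1449181_at read 6.21, 5.71, 5.04, 5.39 and 6.30 in the same order. On this last one ITD613 exceeded ITD78 by only 0.09, against 0.42 and 0.52 on the other 2, so the step from ITD78 to ITD613 for Fech depends on the probe set. ITD78 itself was above the mean of the lower 3 arrays on all 3 probe sets, by 0.54 to 0.82. The fourth Fech probe set read 2.89 to 3.25, in the low range.

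**Figure D2:**
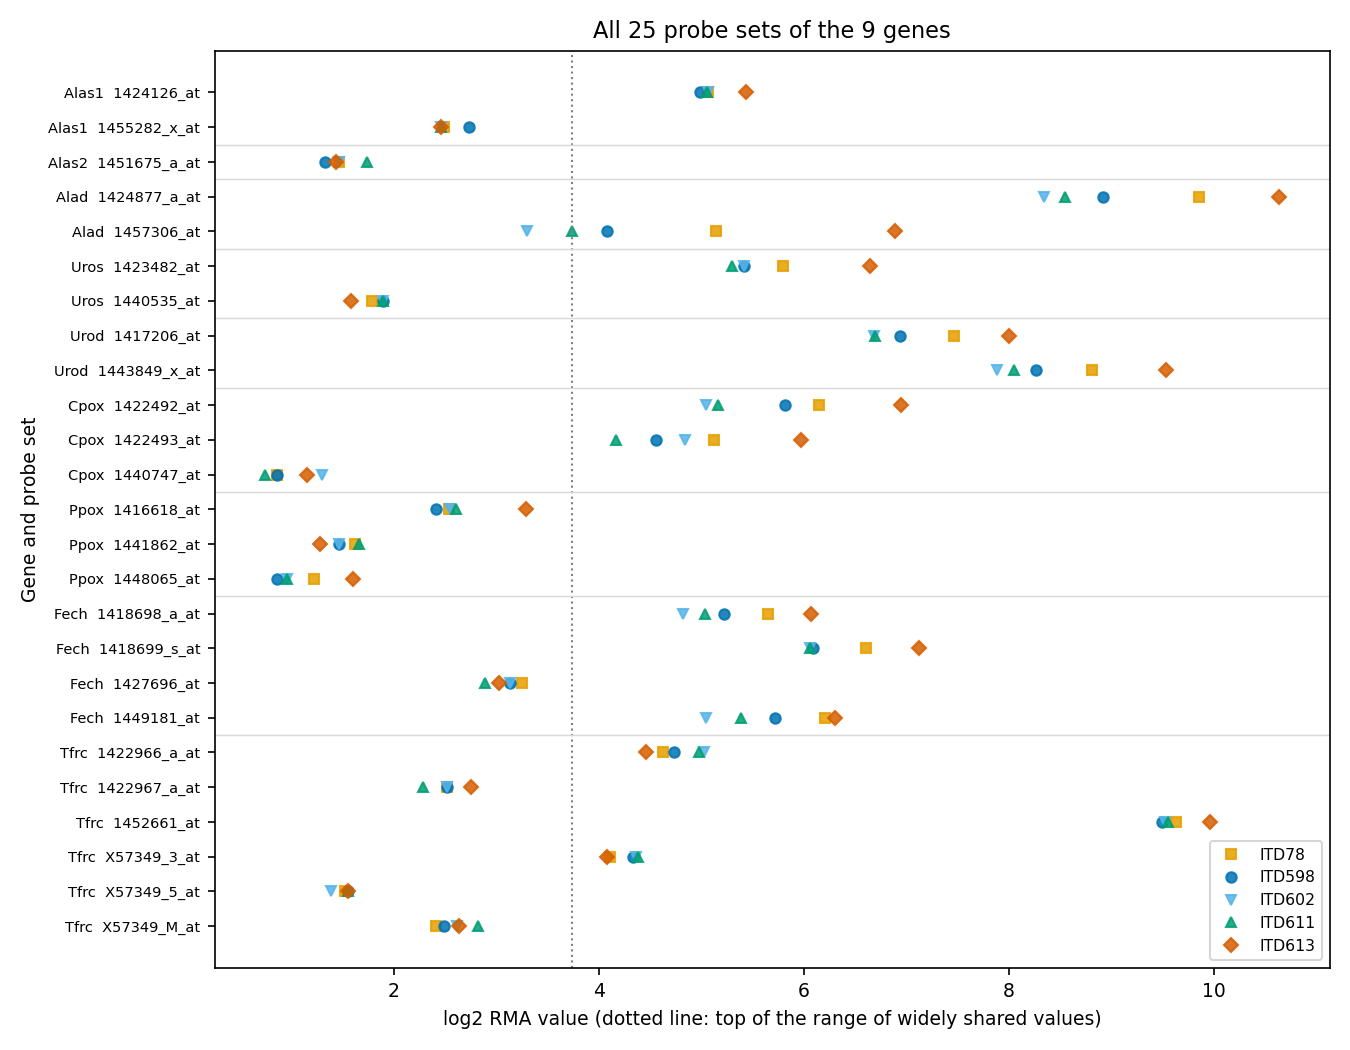
Log2 RMA value (horizontal axis) of each of the 25 probe sets (vertical axis, grouped by gene) on the 5 arrays; the dotted line at 3.74 is the top of the range of widely shared values. In the 10 probe sets of Alad, Uros, Urod, Cpox and Fech that reach above the line, ITD613 is the rightmost point and ITD78 the next, and levels of different probe sets are not comparable with each other.

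Tfrc gave no single direction. The probe set with the highest signal, 1452661_at, read 9.63 on ITD78, 9.49 on ITD598, 9.52 on ITD602, 9.55 on ITD611 and 9.96 on ITD613, which puts ITD613 0.44 above the mean of ITD598, ITD602 and ITD611 (9.52 ± 0.03, SD, n = 3 arrays). The probe set 1422966_a_at read 4.63, 4.73, 5.03, 4.97 and 4.46 on ITD78, ITD598, ITD602, ITD611 and ITD613, with ITD613 lowest, at -0.45 from that mean. The control probe set for the 3′ end of the Tfrc transcript read 4.11, 4.34, 4.36, 4.38 and 4.08, with ITD613 again lowest, at -0.28, and ITD78 at -0.25. The other 3 Tfrc probe sets, among them the controls for the 5′ end and the middle, lay in the low range. Every Tfrc probe set ranged over less than 2-fold.

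**Figure D3:**
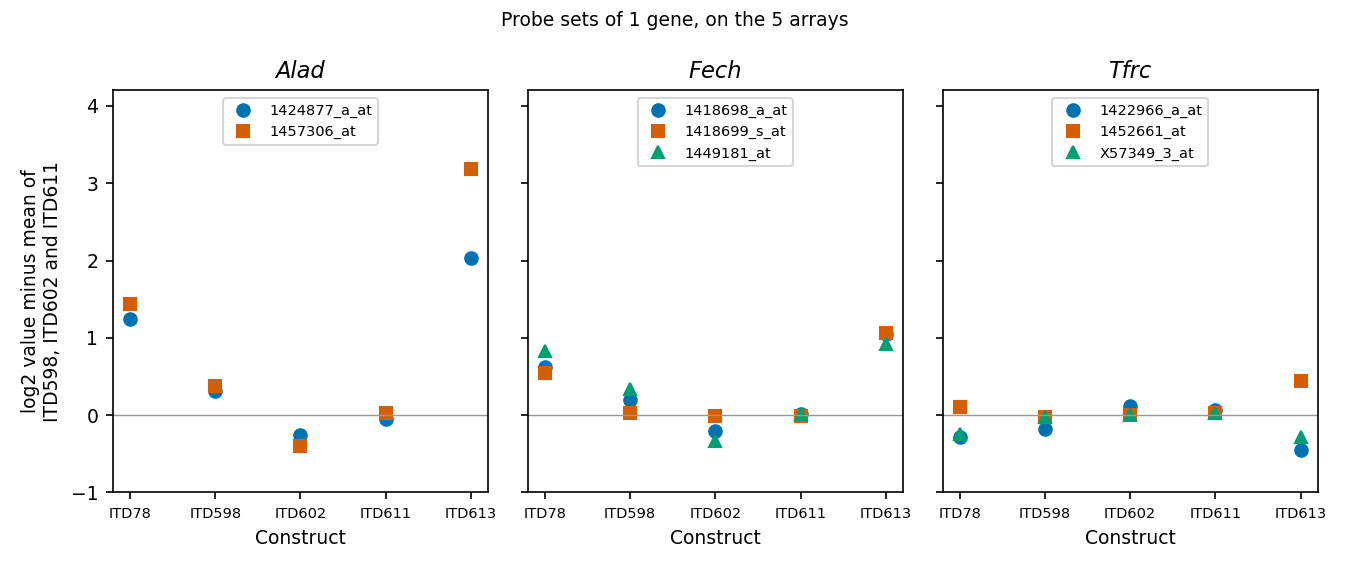
Log2 value minus the mean of ITD598, ITD602 and ITD611 (vertical axis) on each array (horizontal axis) for the probe sets of Alad, Fech and Tfrc that reach above 3.74, with 1 symbol per probe set. The probe sets of Alad and of Fech place ITD613 and ITD78 above the other arrays, whereas those of Tfrc split on ITD613, at 0.44, -0.28 and -0.45.

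Counted over the set, 5 of the 9 genes (Alad, Uros, Urod, Cpox and Fech) ranged at least 2-fold over the 5 arrays, against 10.4% of the 9621 genes that passed the filter and 5.77% of all 18193 genes. The same 5 were at least 2-fold higher on ITD613 than on each of ITD598, ITD602 and ITD611, against 2.82% of the filtered genes and 1.51% of all genes. None of the 9 was at least 2-fold lower on ITD613 than on each of these 3 arrays (2.33% of the filtered genes). Averaging all probe sets of each gene, which takes in those of the low range, left 3 genes (Alad, Urod and Cpox) that ranged at least 2-fold, against 7.67% of the genes that passed the filter on such means, and 2 (Alad and Urod) that were 2-fold above all 3 arrays on ITD613, against 2.11%. Without the ITD613 array 2 genes, Alad and Cpox, still ranged at least 2-fold, against 3.05% of the genes that passed the filter on those 4 arrays.

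ITD78 stood between ITD613 and the rest. Of the 10 probe sets of Alad, Uros, Urod, Cpox and Fech that reach above 3.74, all 10 had ITD613 highest and ITD78 second, an order found in 15.9% of the 13262 named probe sets that reach above 3.74. All 10 ranged at least 2-fold, against 11.8%. These 5 genes are the members that ranged 2-fold with ITD613 highest, so both counts were partly fixed by that choice. Among the other members, Alas1 and Tfrc probe sets above 3.74 all ranged less than 2-fold. The Tfrc probe set 1422966_a_at and the 3′ control of Tfrc had ITD613 lowest. Probe sets of 1 gene read the same transcript and are not independent. Because ITD78 was close behind, 0 of the 9 genes were at least 2-fold above every other array on ITD613 (1.31% of the filtered genes), but 4 of the 7 genes above 3.74 on all arrays (Alad, Uros, Urod and Cpox) were at least 1.5-fold above every other array, against 5.24% of the filtered genes. Ppox passed that limit too, with values of the low range only, which do not count as sized. Without the ITD78 array, all others are ITD598, ITD602 and ITD611, so the rule becomes the count against these arrays given above. It holds the same 5 genes, against 2.84% of the genes that passed the filter without ITD78, and is no separate result. On ITD78, only Alad was at least 1.5-fold above each of ITD598, ITD602 and ITD611 (1.51% of the filtered genes). No member was set apart 2-fold in the remaining comparisons of 1 array with all others, for which the shares of filtered genes ran from 0% (ITD598 lower, ITD602 higher and ITD611 in both directions) over 0.0208% (ITD598 higher), 0.052% (ITD78, each direction) and 0.0728% (ITD602 lower) to 0.925% (ITD613 lower).

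By the probe set that stands for each gene, ITD613 was the highest array for the 7 genes above 3.74 on all arrays (35.7% of the filtered genes), Tfrc among them, although the other 2 Tfrc probe sets above 3.74 had ITD613 lowest; ITD602 was the lowest for 3, Alad, Urod and Cpox (17.3%). The median over all 9 genes of the difference from the mean of ITD598, ITD602 and ITD611 was 1.06 on ITD613 and 0.42 on ITD78, beside 0.011 and -0.015 over the filtered genes. These comparisons share their reference arrays.

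The 5 genes whose pattern over the 5 arrays was closest to each wide-ranging member were found by the root mean square (RMS) difference of log2 values centred on the gene's mean. For Alad they were Arfgap3 (0.11), Blvrb (0.11), E2f2 (0.13), Gata1 (0.13) and Icam4 (0.13). Blvrb encodes a biliverdin reductase that acts on a breakdown product of heme, Gata1 a transcription factor of red cell development and Icam4 a red cell adhesion molecule. For Uros they were Stradb, Rnf167, the gene annotated as Mir142, Wdr81 and Pcmtd2, with RMS differences of 0.05 to 0.07. Urod was closest to Eps8, Chac2, Lrrc20, Dcaf6 and Zfp229 (0.06 to 0.08), and Cpox to Gadd45a, Plxdc1, Inafm1, Six4 and Vamp5 (0.08 to 0.13). Fech was closest to Zgrf1, Krcc1, Zfp420, Cdkn2c and Abhd16a (0.02 to 0.04), of which Cdkn2c encodes a cell cycle inhibitor. Of the genes named, Eps8, Lrrc20, Plxdc1 and Zfp420 lay in the low range on some arrays. Their likeness thus rests in part on differences that were not sized.

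The number of genes with a near pattern differed between members. Values were centred but not scaled, so a wider range of the member leaves fewer genes within a set distance. Within an RMS difference of 0.1 there were 0 genes for Alad, 1 for Cpox, 17 for Urod, 34 for Uros and 82 for Fech, but 924 for Tfrc, whose probe set hardly varied. The nearest to Tfrc were Synj1, Hps4, Rbm45, Slx4 and Zfp160 (0.01 to 0.02). For Alas2, in the low range, they were Ddx58, a RIKEN clone gene, Ftsj3, D2hgdh and Slc30a3 (0.04 to 0.05). These distances are over 5 arrays and describe likeness only.

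Genes of the list for porphyrin and mitochondrial transport were partly placed like the enzymes. Of 13 transport genes with a probe set, 3 (Abcb10, Abcb6 and Tspo2) were at least 2-fold higher on ITD613 than on each of ITD598, ITD602 and ITD611. None was 2-fold lower. Over the filtered genes the shares were 2.82% higher and 2.33% lower, which also stand beside the list counts below. The list median was 0.33 on ITD613 and 0.10 on ITD78. List medians here and below take in genes of the low range. Abcb10, a mitochondrial inner membrane transporter needed for heme synthesis in red cells, read 6.66 on ITD78, 6.10 on ITD598, 5.81 on ITD602, 5.93 on ITD611 and 7.65 on ITD613. Abcb6, a porphyrin transporter, read 6.50, 5.99, 5.99, 6.11 and 7.43 on ITD78, ITD598, ITD602, ITD611 and ITD613. Both thus had the 2 top arrays of the enzymes in the same order. Slc25a38, which brings glycine into mitochondria, read 5.02, 4.78, 4.85, 4.77 and 5.78, with ITD613 0.76 above ITD78. Tspo2, an erythroid membrane protein, read 5.06 on ITD613 and at most 2.98 elsewhere, in the low range.

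Most genes of the substrate side did not share this placement. Of the 9 genes for glycine and succinyl-CoA supply, 0 were 2-fold higher and 0 were 2-fold lower on ITD613 than on each of the 3 reference arrays, and the list median was -0.34 on ITD613 and -0.20 on ITD78. Shmt2, which makes glycine from serine in mitochondria, had the widest range of them, at 7.37 on ITD78, 7.54 on ITD598, 7.81 on ITD602, 7.58 on ITD611 and 6.71 on ITD613. ITD613 was the lowest array for Shmt2, where it was the highest for Alad to Fech. It was lowest for 6 of the 9 supply genes, and the share of all genes with ITD613 lowest was not computed. Slc6a9 (4.56 on ITD613, 4.29 on ITD78) and Ogdh (6.41 on ITD613) had ITD613 highest.

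Iron genes beside Tfrc differed little. None of the 18 genes for iron uptake, storage and sensing with a probe set was at least 2-fold higher or lower on ITD613 than on each of the 3 reference arrays, none of the 11 that passed the filter ranged 2-fold, and 9 of the 18 lay in the low range throughout; the list median was near 0 on ITD613 (5.61e-05) and -0.03 on ITD78. Of the 14 genes for iron-sulfur cluster assembly, a mitochondrial process that draws on the same iron, 0 passed 2-fold against the 3 arrays in either direction, with a list median of 0.23 on ITD613 and 0.04 on ITD78. Only Fdx1, a ferredoxin gene, ranged 2-fold, from 8.19 on ITD602 to 7.13 on ITD613.

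Heme breakdown genes had no common direction. Of 15 genes for heme breakdown and sensing, 1 (Blvrb) was at least 2-fold higher on ITD613 than on each of the 3 reference arrays, and 1 (Hmox1) was at least 2-fold lower only by a value of the low range: with such values raised to 3.74, a setting chosen after the data were seen, 0 were 2-fold lower. The list median was -0.05 on ITD613 and -0.05 on ITD78. On ITD613 it is the value of Nr1d1, a gene in the low range on all arrays. Blvrb read 8.83 on ITD78, 7.91 on ITD598, 7.34 on ITD602, 7.42 on ITD611 and 9.84 on ITD613. Hmox1, the inducible heme oxygenase that opens the heme ring, read 4.13, 4.59, 4.76, 4.62 and 3.55 in the same order, so the ITD613 value reached the low range. Nr1d2, a heme-binding nuclear receptor of the circadian clock, read 4.88 on ITD613 and 5.77 to 6.02 on the other arrays.

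**Figure D4:**
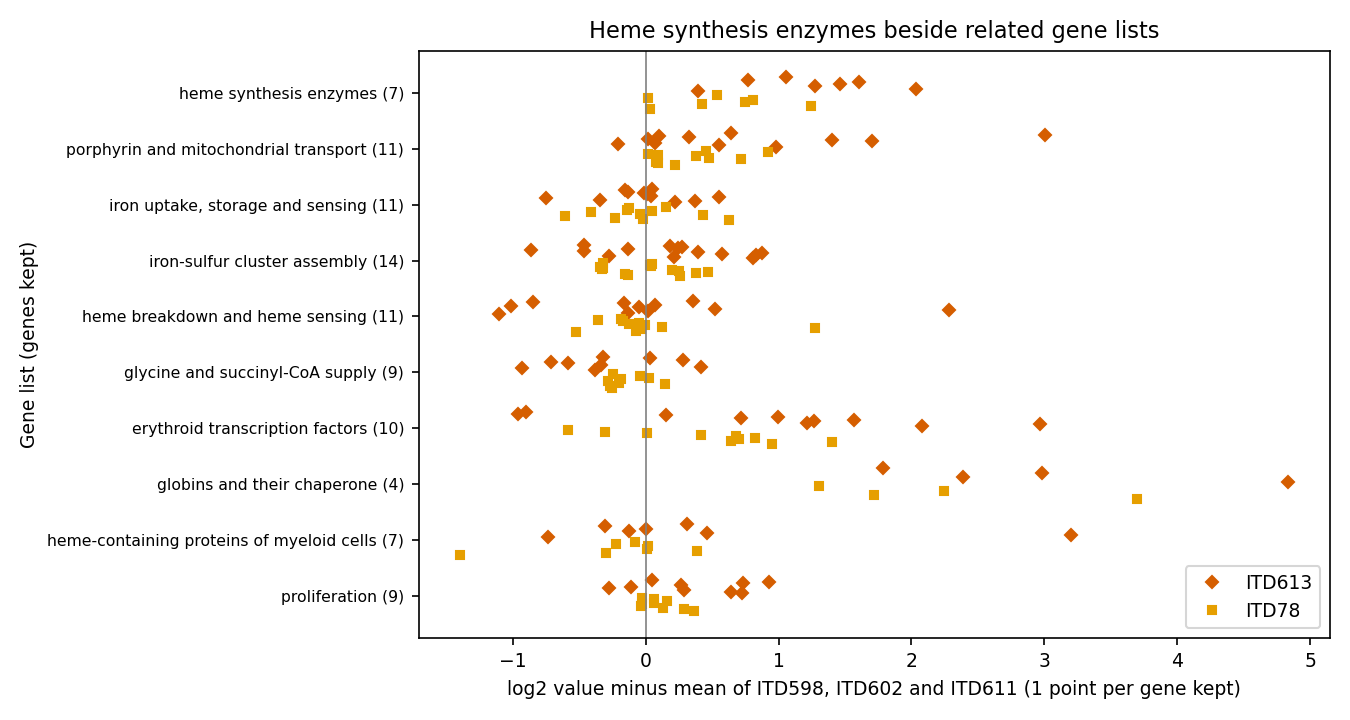
Log2 value minus the mean of ITD598, ITD602 and ITD611 (horizontal axis) on ITD613 and ITD78 for the genes of each list (vertical axis) that passed the expression filter, with 1 point per gene and array. The heme synthesis enzymes lie at or right of 0 on both arrays, with medians of the whole lists at 1.10 (ITD613) and 0.66 (ITD78) for erythroid transcription factors and at -0.34 and -0.20 for glycine and succinyl-CoA supply.

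Most erythroid regulators and globins, which govern or use the heme made, had the same top arrays. ITD613 was first and ITD78 second for 7 of 10 erythroid transcription factor genes and 4 of 6 globin genes. The share of genes with this order was not computed, and among named probe sets that reach above 3.74 it was 15.9%. The list median of the factor genes was 1.10 on ITD613 and 0.66 on ITD78. Of these 10 genes, 5 were at least 2-fold higher on ITD613 than on each of the 3 reference arrays (2.82% of the filtered genes). None was 2-fold lower (2.33%). The 4 with the widest range were Klf1 (2.97 above the mean of the 3 arrays on ITD613 and 1.40 on ITD78), Gata1 (2.08 and 0.95), Nfe2 (1.57 and 0.82) and Gfi1b (1.27 and 0.70). Against these, Gata2, a factor of early progenitors, and Spi1, a factor of myeloid cells that can oppose Gata1, were lowest on ITD613. Gata2 read 7.88 on ITD78, 8.18 on ITD598, 8.34 on ITD602, 8.03 on ITD611 and 7.22 on ITD613, and Spi1 read 3.94, 4.41, 4.70, 4.46 and 3.63 in the same order, the last in the low range. Ldb1, a cofactor of these proteins, was highest on ITD602 and ranged by 0.49. Of 6 globin genes with a probe set, the embryonic Hba-x, Hbb-bh1 and Hbb-y and the adult Hbb-b2 were at least 2-fold higher on ITD613 than on each of the 3 arrays, by 4.84, 2.98, 1.79 and 2.39 over their mean, and by 3.70, 2.24, 1.30 and 1.72 on ITD78. Globin probe sets can bind more than 1 globin transcript. The adult alpha-globin genes Hba-a1 and Hba-a2 lay in the low range on every array, like Alas2.

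Other users of heme showed no common direction. For heme-containing proteins of myeloid cells the list median was -0.05 on ITD613 and -0.08 on ITD78. On ITD613 it is the value of Cybb, a gene in the low range on all arrays. Of the 9 genes, 1 was 2-fold higher on ITD613 than on each of the 3 arrays and 0 were 2-fold lower. The one higher was Epx, the eosinophil peroxidase, at 5.18 on ITD613 and at most 2.14 elsewhere, in the low range. Mpo, the myeloperoxidase of neutrophils, read 4.52 on ITD78, 6.55 on ITD598, 6.21 on ITD602, 5.00 on ITD611 and 5.18 on ITD613, so ITD78, second for the heme enzymes, was lowest for Mpo.

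Cell identity markers differed with the same arrays. Of 10 myeloid progenitor markers, 5 (Ptprc, Mpo, Ctsg, Prtn3 and Csf2rb) lay above 3.74 on all arrays, and Kit, Cd34, Elane and Cebpa lay in the low range on all, so part of the defining markers of the labelled line were not seen above the low range. The summed linear level of these 10 markers was 726 on ITD78, 1553 on ITD598, 1710 on ITD602, 1485 on ITD611 and 458 on ITD613. Of 6 erythroid markers with a probe set, Klf1 and Gata1 lay above 3.74 on all arrays, Slc4a1 and Rhag only on ITD78 and ITD613, and Epor and Hba-a1 on none; their summed linear level was 560 on ITD78, 266 on ITD598, 179 on ITD602, 223 on ITD611 and 1422 on ITD613. Such sums add probe sets of unlike response and follow the strongest: Klf1 alone made up 57.4% (ITD602) to 72.4% (ITD613) of the erythroid sum. All 5 lymphoid, all 5 fibroblast and stromal and all 4 epithelial markers lay in the low range on all arrays. Of 9 proliferation genes, 0 were 2-fold higher or lower on ITD613 than on each of the 3 reference arrays, and their summed linear level was 8388, 7876, 7535, 7647 and 9608 on ITD78, ITD598, ITD602, ITD611 and ITD613. The part of these markers in the heme enzyme differences was not tested, and in bulk RNA more cells of a type and more RNA per cell cannot be told apart.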

How the data were processed

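RNA of 5 transduced 32D lines was hybridised to Affymetrix mouse expression arrays, 1 per construct. As deposited by the authors, each probe set holds 1 log2 value per array; the submitters' processing notes name RMA, a method that corrects background, normalizes between arrays and summarises probes, and its version and chip definition are not given in the sources used here. Values reach 13.45, more than a natural logarithm of scanner readings allows (11.09), hence log2. RMA aligns the arrays' distributions, so a shift shared by most genes would not be seen.

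Of 45101 probe sets, 34945 had exactly 1 gene symbol in the platform annotation and were no control. The filter kept genes whose highest value reached the 60th percentile of all values (2.75). A call is a difference of at least 1 (log2; 2-fold). Named genes are the 9 members, up to 4 genes per list ranging at least 2-fold, and the 5 nearest patterns. The members and lists were chosen with earlier results of these data known. The letterings searched before starts, the 2-fold count against 3 arrays and genes named outside this rule were chosen after values were seen. 1 enzyme of the pathway was not analysed here. With 1 array per group no test was possible and the number of arrays limits precision; the rules were tested on simulated data. Alternatives were 14 settings of probe set, filter, low range, scaling, fold, reference and arrays. Computation used Python 3.11.15, pandas 2.3.3 and numpy 2.4.6.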

Additional observations from a re-analysis of the deposited data

How the results depend on the processing

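Under 14 alternative settings no value of this set changed sign where it was at least 2-fold. Of 205 recomputed counts and medians, 192 stayed within 1.5 times (counts) or within 0.18 on the log2 scale (medians). Many of these counts were 0 and stayed 0, and some settings cannot change some results. Part of this agreement was therefore fixed in advance. Of the differences of single members on single arrays, 458 stayed within 0.18 and 82 moved further. The mean of all probe sets of a gene, which adds probe sets of the low range, gave 3 in place of 5 members ranging at least 2-fold, 2 in place of 5 members 2-fold above ITD598, ITD602 and ITD611 on ITD613, 1 in place of 0 members set apart on ITD613, and medians of 0.61 in place of 1.05 on ITD613 and -0.13 in place of -0.32 on ITD598 (difference from the mean of the other 4 arrays, over the 8 members kept). With 1.5-fold as the limit, 5 members, Ppox of the low range among them, were set apart higher on ITD613. Against the median of the other arrays the ITD78 median was 0.46 in place of 0.19; the cause is that ITD613 enters the mean of the others. Leaving out each array in turn gave 2 (without ITD613) to 5 members ranging 2-fold, 0 to 5 (without ITD78) set apart higher on ITD613, and medians from 0.078 to 0.54 on ITD78, -0.45 to -0.070 on ITD598, -0.55 to -0.20 on ITD602 and -0.61 to -0.25 on ITD611. The count set apart without ITD78 is, by its rule, the count of members 2-fold above ITD598, ITD602 and ITD611. Centring the arrays and leaving out _x_at and _s_at probe sets each gave 4 members 2-fold above the 3 arrays, Fech falling short. Levels below 3.74, which hold Alas2 and Ppox, limit what can be said of those genes. No paired analysis was possible because each group has 1 array.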
